A study of Mus musculus with 12 samples.

Results

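Dendritic cells (DCs) acquire their identity from a small group of transcription factors, and 10 of these were followed here across bone marrow-derived DCs of young mice, young mice given antibiotics, old mice and old mice given a Lactobacillus plantarum strain (LP). The genes were Irf4, Irf8, Batf3, Id2, Zbtb46, Spi1, Klf4, Zeb2, Tcf4 and Nfil3, chosen by name, and every array probe whose accession names one of them was read. This gave 20 probes of the 56605 on the array, and 10 genes of the 24232 that could be named. Irf4, Zbtb46 and Nfil3 had 2 probes each, Zeb2 had 4, Tcf4 had 5 and the others 1. None of the 20 probes passed the test between any groups when all arrays were used. Klf4, Batf3 and 1 probe each of Irf4 and Tcf4 passed it on the slide that carried replicates A and B. On that slide 0.0389% to 9.17% of all probes passed, depending on the comparison.

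RNA was read on 12 Agilent mouse arrays of 1 colour, where dye-labelled RNA sticks to printed DNA probes and a brighter spot means more transcript. DC-Young came from female C57BL/6 mice labelled as 2 months old, and DC-Dysbiotic from mice of the same age given ampicillin, neomycin, metronidazole and vancomycin in their drinking water for 21 days. DC-Old came from mice labelled as 24 months old, and DC-Old-LP from such mice given LP by gavage over 21 days. Marrow cells of all 4 groups were grown with GM-CSF and IL-4, taken at day 7 and stimulated with lipopolysaccharide at 1 μg/ml for 24 h, so no unstimulated level is available as a reference. Each group has 3 arrays, A, B and C, each with RNA of a pool of 3 mice. The study's figure legends call the sets independent, the labels do not say whether the letters were separate cultures, and p-values measure the spread between these arrays. GM-CSF cultures hold DCs and macrophage-like cells together, and in such bulk RNA fewer cells of a type and less RNA per cell cannot be told apart.

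Conventional DCs fall into a cDC1 branch, which takes up dead cells and presents their antigens to CD8 T cells, and a cDC2 branch, which mainly primes CD4 T cells, while plasmacytoid DCs specialise in type I interferon. IRF8 and BATF3 drive cDC1, with NFIL3 and ID2 acting upstream, IRF4 and KLF4 serve cDC2, and TCF4 (E2-2) drives plasmacytoid DCs, where ID2 opposes it. ZEB2 represses Id2 and favours the plasmacytoid and cDC2 branches, ZBTB46 marks conventional DCs, and PU.1, the product of Spi1, is needed throughout the myeloid lineage.

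The arrays lettered C stand apart from the others. A and B of all groups share 1 slide, C of DC-Young and DC-Dysbiotic lies on the second slide, and C of both old groups on the third. The share of spots well above background was 61.2% to 66.4% on A and B and 37.3% to 46.0% on C, lowest on DC-Old C. At the 20 probes, A and B of a group differed by at most 0.57 on the log2 scale, while C differed from the mean of A and B by up to 5.97. Values below are therefore given for each array, and differences also for each letter. For DC-Dysbiotic versus DC-Young, and for DC-Old-LP versus DC-Old, C compares arrays of 1 slide, whereas between young and old mice C arrays lie on different slides. The part that the slide, the signal or the preparation of C had in any result was not tested.

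The labelled cell type was checked on its markers. The pan-DC gene Itgax, which encodes CD11c, was between 14.09 and 14.80 (log2 intensity) on all 12 arrays, Cd74, the invariant chain of MHC class II, was between 16.78 and 17.19, and 10 of 11 pan-DC genes were well above background on every array. All 13 monocyte and macrophage genes were also well above background on every array. Among genes of single DC branches, 6 of 9 cDC1 genes and 8 of 10 plasmacytoid genes were well above background on every array. So were 7 of 10 cDC2 and monocyte-derived DC genes. In each list 1 gene was well above background on no array, namely the cDC1 chemokine receptor gene Xcr1, Cd209a and the plasmacytoid gene Ptcra. The cDC1 gene Clec9a was measured on all arrays.

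Promoter sequences are shown for Irf4, Batf3 and Klf4, the 3 genes that passed the test on the first slide at their brightest probe. They are the 250 bases before the annotated RefSeq start, in build GRCm38.p6, 5′ to 3′ on the gene's own strand. Capitals mark matches on either strand to any of 4 short letter motifs: GAGGAA, a core that PU.1 binds, GAAANNGAAA, the tandem core of interferon regulatory factors, TGANTCA, the AP-1 site to which BATF proteins bind with JUN, and CACCC, the core of KLF sites. No match overlaps another.
Irf4, chr13:30748983-30749232, plus strand: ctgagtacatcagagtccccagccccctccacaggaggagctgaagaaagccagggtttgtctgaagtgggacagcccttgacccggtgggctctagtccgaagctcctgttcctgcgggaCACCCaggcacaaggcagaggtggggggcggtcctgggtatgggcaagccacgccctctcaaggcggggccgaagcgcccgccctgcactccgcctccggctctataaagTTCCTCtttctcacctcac
Batf3, chr1:191098164-191098413, plus strand: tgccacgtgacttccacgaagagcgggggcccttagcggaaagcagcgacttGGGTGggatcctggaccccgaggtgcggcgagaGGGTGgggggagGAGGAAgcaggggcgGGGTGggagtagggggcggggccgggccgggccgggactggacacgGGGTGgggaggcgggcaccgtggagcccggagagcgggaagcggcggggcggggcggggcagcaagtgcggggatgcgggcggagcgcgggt
Klf4, chr4:55532476-55532725, minus strand: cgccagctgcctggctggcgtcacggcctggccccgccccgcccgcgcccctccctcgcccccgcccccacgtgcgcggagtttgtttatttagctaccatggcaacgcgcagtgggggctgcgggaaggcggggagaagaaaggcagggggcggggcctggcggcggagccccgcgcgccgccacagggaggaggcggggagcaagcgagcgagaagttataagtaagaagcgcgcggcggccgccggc

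The Irf4 window held 1 GAGGAA match, 19 bases before the start, and 1 CACCC match, and the Batf3 window held 1 GAGGAA and 4 CACCC matches. Neither window held the interferon regulatory factor or AP-1 letters, and the Klf4 window held none of the 4 motifs. Of all 32851 promoter windows of this length, GAGGAA was in 23.3%, GAAANNGAAA in 2.98%, TGANTCA in 6.75% and CACCC in 52%. Windows were found for 8 of the 10 genes, 12 windows in all, and TGANTCA was present in 1 window each of Zbtb46 and Zeb2. These matches describe letters and show no binding.

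Klf4, a zinc finger factor of monocytes and of a cDC2 branch, had the widest separation of groups among the 10 genes on A and B. Its log2 intensity on A, B and C was 12.52, 12.48 and 12.54 in DC-Young, and 11.40, 11.42 and 11.64 in DC-Dysbiotic. It was 11.18, 11.07 and 13.15 in DC-Old, whereas DC-Old-LP read 12.63, 12.60 and 12.48. Every DC-Dysbiotic array lay below every DC-Young array, and DC-Old lay lowest on A and B but held the highest of all 12 values on C.

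For DC-Dysbiotic versus DC-Young, Klf4 was lower on each letter, by differences of -1.12, -1.05 and -0.89, with means that correspond to 2.03-fold more signal in DC-Young. The log2 fold change was -1.02 (SE 0.462, 95% interval -2.05 to 0.0052, adjusted p = 1, limma over all probes). The spread that enters this test is shared by all groups. Without DC-Old replicate C the same difference passed with an adjusted p of 0.0295 (limma). With only the 2 groups compared, which leaves out every DC-Old array, it did not pass. The cause was not tested. For DC-Old-LP versus DC-Dysbiotic the groups did not overlap either, with Klf4 higher in DC-Old-LP by 1.08 (SE 0.462, 95% interval 0.0539 to 2.11, limma adjusted p = 1).

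For DC-Old versus DC-Young, the Klf4 differences were -1.34 on A and -1.41 on B but 0.62 on C. The log2 fold change over all arrays was -0.71 (SE 0.462, 95% interval -1.74 to 0.32, limma adjusted p = 1). On the first slide alone it was -1.37 (SE 0.0879, adjusted p = 0.00071, limma with 2 arrays a group), which is 2.59-fold lower in DC-Old. For DC-Old-LP versus DC-Old the letters gave 1.45, 1.53 and -0.67, and on the first slide Klf4 was 2.8-fold higher in DC-Old-LP (limma adjusted p = 0.000678). The 2 comparisons share the DC-Old arrays, and in both the call rests on A and B. Leaving out DC-Old replicate C gave -1.38 for DC-Old versus DC-Young (limma adjusted p = 0.00992) and 1.44 for DC-Old-LP versus DC-Old (limma adjusted p = 0.00978). Leaving out A or B of DC-Old moved them the other way, to -0.40 and -0.34 in the first comparison and to 0.46 and 0.40 in the second, where the value over all arrays was 0.77, and none of these passed. With the slide as a block the values were -0.98 and 0.77, with adjusted p of 0.39 and 0.348 (limma). DC-Old-LP and DC-Young lay close together, with a difference of 0.06 and a 95% interval of -0.97 to 1.09, which does not show that they were alike.

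**Figure D1:**
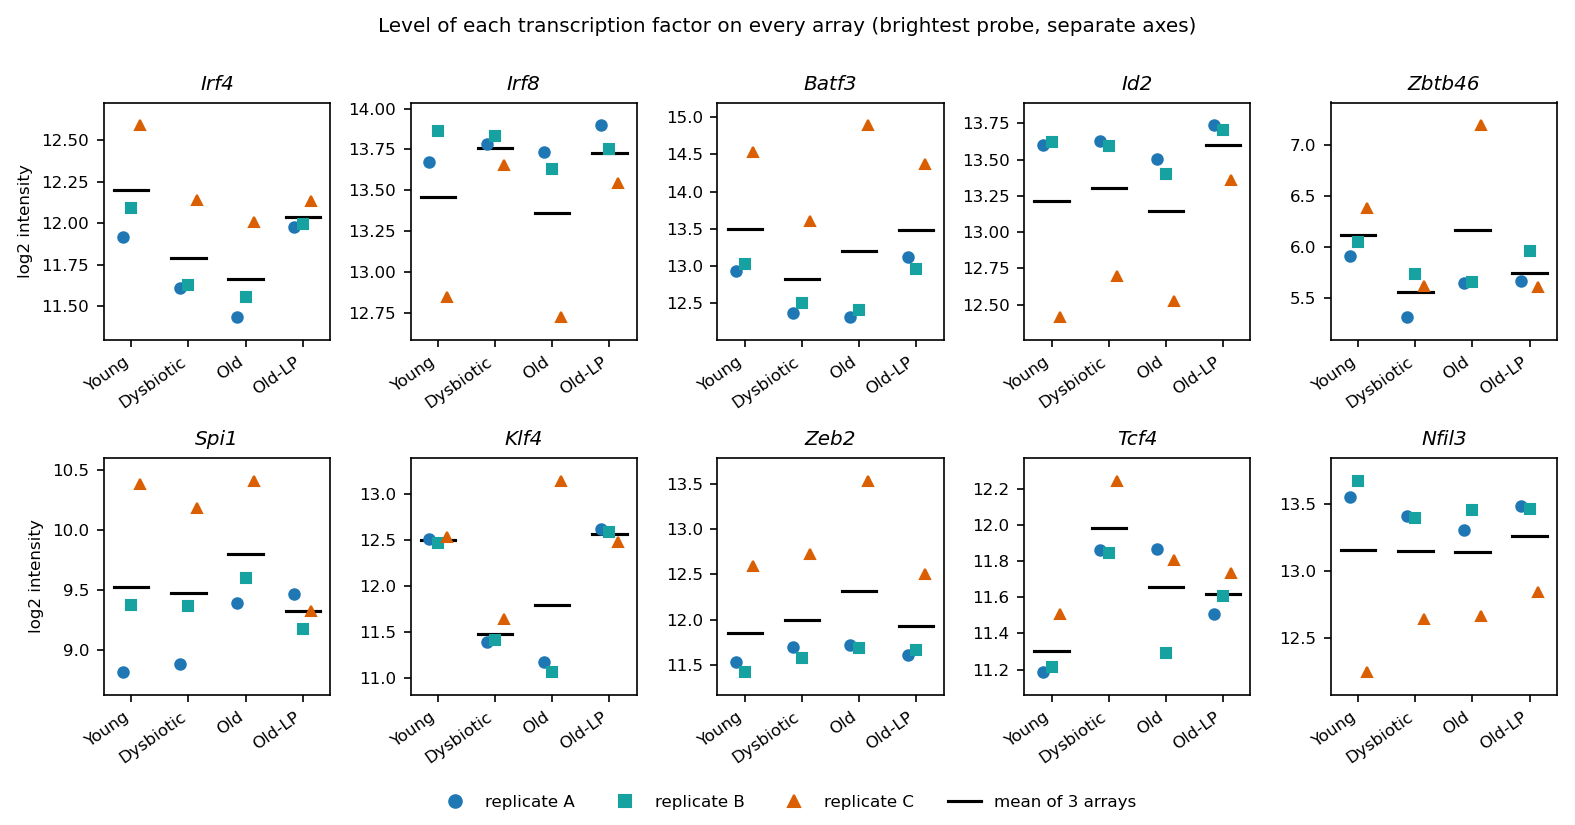
Log2 intensity of the brightest probe of each of the 10 genes (vertical axes, scaled separately) in the 4 groups (horizontal axis), with 1 point per array, the shape and colour giving the replicate letter, and a line at the mean of 3 arrays. Klf4 sits between 12.48 and 12.54 in DC-Young and between 11.40 and 11.64 in DC-Dysbiotic, while DC-Old spans 11.07 to 13.15 and C departs from A and B for most genes.

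Irf4, the factor that cDC2 and monocyte-derived DCs depend on, was the only gene of the 10 whose brightest probe read less in DC-Old than in DC-Young on all letters. Its log2 intensity was 11.92, 12.09 and 12.59 in DC-Young and 11.43, 11.55 and 12.004 in DC-Old. In DC-Dysbiotic it was 11.61, 11.63 and 12.14, and in DC-Old-LP 11.98, 11.99 and 12.13. The order of means was DC-Young, DC-Old-LP, DC-Dysbiotic and DC-Old, and no neighbours in that order passed the test. C was the highest value in each group, so the ranges of DC-Young and DC-Old overlapped although every letter pointed the same way.

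The Irf4 differences of DC-Old from DC-Young were -0.48, -0.54 and -0.59 on A, B and C. The log2 fold change was -0.54 (SE 0.265, 95% interval -1.13 to 0.05, adjusted p = 0.918, limma), or 1.45-fold less signal in DC-Old, and it did not pass. Without DC-Young replicate C, which sets A and B of DC-Young against all 3 letters of DC-Old, it was -0.34. With the mean of both probes it was -0.38. On the first slide the value was -0.51 (SE 0.101, limma adjusted p = 0.0328), and with the slide as a block -0.46 (limma adjusted p = 0.163). For DC-Dysbiotic versus DC-Young the letters gave -0.31, -0.47 and -0.45, and on the first slide the adjusted p was 0.0955 (limma). The fitted -0.41 became -0.21 without DC-Young replicate C, which again leaves the letters unequal, and -1.45 with the mean of both probes. DC-Old-LP was higher than DC-Old by 0.54, 0.44 and 0.13, and the first slide gave 0.49 with an adjusted p of 0.0404 (limma), just under the fold threshold of 0.5. The dimmer probe of Irf4 ran in the same direction between DC-Old and DC-Young on the 3 letters, by -0.43, -0.22 and -0.04. On the first slide that difference was -0.32 and did not pass (limma adjusted p = 0.191). On DC-Dysbiotic C that probe was not well above background and read 1.95, against 7.89 to 8.61 on all other arrays, so its non-overlap with DC-Young rests partly on that array.

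Among the cDC1 factors, Batf3, which sustains Irf8 expression in committed cDC1 cells, resembled Klf4. Its log2 intensity was 12.93, 13.03 and 14.54 in DC-Young, 12.36, 12.50 and 13.60 in DC-Dysbiotic, 12.32, 12.41 and 14.89 in DC-Old, whereas DC-Old-LP read 13.12, 12.96 and 14.37. C was higher than A and B in every group, by 1.17 to 2.53, and all groups overlapped. DC-Dysbiotic was below DC-Young on each letter, by -0.57, -0.53 and -0.94, and the fit gave -0.68 (SE 0.747, 95% interval -2.34 to 0.98, limma adjusted p = 1). It was -0.16 without DC-Young replicate C, -0.45 without DC-Dysbiotic replicate A and -1.07 without DC-Dysbiotic replicate C. Each of these fits leaves the letters unequal between the groups, so the gap between C and the other letters enters the values. DC-Old was below DC-Young by -0.61 and -0.62 on A and B and above it by 0.35 on C.

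On the first slide Batf3 passed in 4 comparisons. Its level in DC-Young was 1.53-fold that in DC-Old (limma adjusted p = 0.0224) and 1.46-fold that in DC-Dysbiotic (limma adjusted p = 0.044). Its level in DC-Old-LP was 1.6-fold that in DC-Old (limma adjusted p = 0.0179) and 1.52-fold that in DC-Dysbiotic (limma adjusted p = 0.0377). On the third slide, which holds C of both old groups, the difference was -0.52, the other direction.

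Irf8, the factor without which cDC1 cells do not form, showed no such separation. On A and B all groups lay between 13.63 and 13.90. On C it was 12.85 in DC-Young and 12.73 in DC-Old but 13.65 in DC-Dysbiotic and 13.54 in DC-Old-LP. DC-Dysbiotic thus exceeded DC-Young by 0.81 on the second slide and DC-Old-LP exceeded DC-Old by 0.82 on the third, while on A and B these differences were between -0.03 and 0.16. The fits gave 0.30 (95% interval -0.45 to 1.05) and 0.37 (95% interval -0.38 to 1.12), neither of which passed.

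Id2, which encodes an inhibitor that binds E proteins and keeps them from DNA, was between 13.40 and 13.73 on A and B. On C it was 12.42 in DC-Young, 12.70 in DC-Dysbiotic, 12.52 in DC-Old, whereas DC-Old-LP read 13.36. DC-Old-LP was above DC-Old on every letter, by 0.23, 0.30 and 0.83, with a log2 fold change of 0.45 (SE 0.415, 95% interval -0.47 to 1.38, limma adjusted p = 1). Nfil3, which acts before Id2 in cDC1 progenitors, was between 13.31 and 13.67 on A and B at its brighter probe and between 12.25 and 12.85 on C. DC-Old and DC-Dysbiotic both lay below DC-Young on A and B and above it on C, and the fitted values were -0.02 and -0.01. The dimmer Nfil3 probe read nearly the same on A and B, between 13.32 and 13.66.

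**Figure D2:**
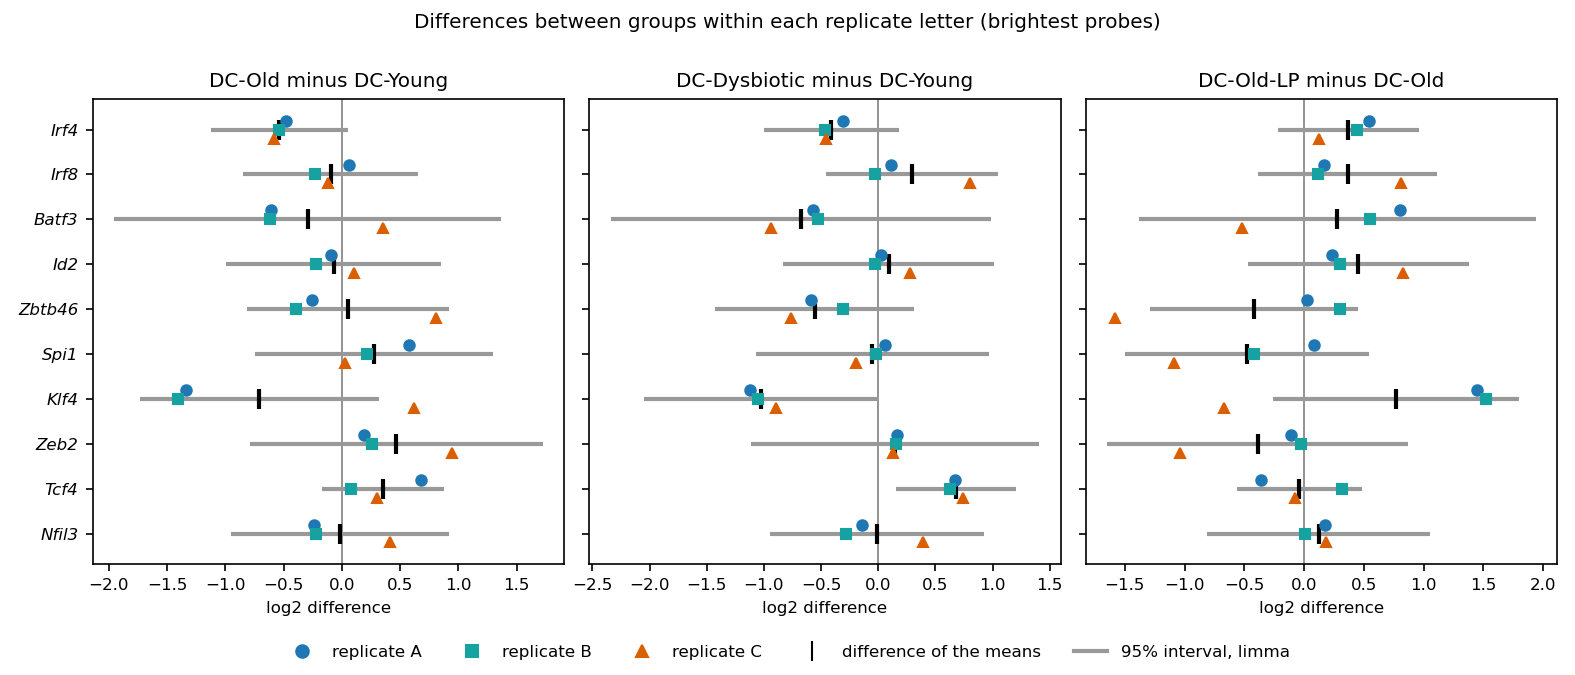
Log2 difference between groups (horizontal axes) for the brightest probe of each gene (vertical axis) in 3 comparisons, with 1 point per replicate letter, a tick at the difference of the group means and a bar for its 95% limma interval. For DC-Old minus DC-Young, Irf4 lies between -0.59 and -0.48 on all letters while Klf4 is at -1.34, -1.41 and 0.62, and only the Tcf4 interval in the middle comparison leaves out 0.

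Tcf4 encodes the E protein that commits cells to the plasmacytoid fate, and it was the only gene with a rise in DC-Dysbiotic whose interval left out 0. At its brightest probe the log2 intensity was 11.19, 11.21 and 11.50 in DC-Young and 11.86, 11.84 and 12.24 in DC-Dysbiotic. It was 11.87, 11.29 and 11.81 in DC-Old, whereas DC-Old-LP read 11.51, 11.61 and 11.74. DC-Dysbiotic lay above DC-Young and above DC-Old-LP without overlap. Every DC-Old-LP array lay above every DC-Young array, but barely, with 11.507 on DC-Old-LP A and 11.505 on DC-Young C, which are on different slides.

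DC-Dysbiotic exceeded DC-Young at this Tcf4 probe by 0.68, 0.63 and 0.74 on A, B and C. The fitted 0.68 (SE 0.234, 95% interval 0.16 to 1.20) had an unadjusted p of 0.0156 and an adjusted p of 0.782 (limma). With the slide as a block the adjusted p was 0.0811 (limma). At the second brightest probe DC-Dysbiotic was higher by 0.48, 0.55 and 0.16, again without overlap, and DC-Old was higher than DC-Young by 0.54, 0.78 and 0.14. That probe passed on the first slide for DC-Old versus DC-Young, at 0.66 (limma adjusted p = 0.0464). The other 3 probes of Tcf4 differed less, with fitted differences of DC-Dysbiotic from DC-Young of 0.05, -0.19 and 0.19. The dimmest was not well above background on 4 of the 12 arrays. Probes of 1 gene can read different transcripts, and which isoforms these probes read was not analysed here.

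Zeb2, a repressor whose product acts against Id2, had 4 probes. The brightest read 11.42 to 11.72 on A and B of all groups and 12.50 to 13.54 on C, with the highest value on DC-Old C. Its DC-Old minus DC-Young differences were 0.19, 0.26 and 0.95, and those of the second brightest probe were 0.53, 0.39 and 0.13. Both were positive on all letters, with fitted values of 0.47 (95% interval -0.79 to 1.72) and 0.35 (95% interval -0.56 to 1.26), and neither passed. The third probe gave 0.15, 0.23 and -0.07, with a fitted value of 0.10. The dimmest gave 0.81, 0.16 and -2.36, with a fitted value of -0.46, and these did not pass either. The dimmest probe was not well above background on 2 arrays and read 1.85 on DC-Old C.

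Spi1, which encodes PU.1, read 8.82, 9.38 and 10.38 in DC-Young and 8.88, 9.36 and 10.19 in DC-Dysbiotic. In DC-Old it read 9.39, 9.60 and 10.41, and in DC-Old-LP 9.47, 9.18 and 9.32. Only in DC-Old-LP was C within the range of A and B. The largest fitted difference among DC-Old-LP, DC-Old and DC-Young was -0.48 for DC-Old-LP versus DC-Old (SE 0.46, 95% interval -1.50 to 0.55). Zbtb46, a repressor expressed in conventional DCs and their committed precursors, was dim. Its brighter probe read 5.32 to 6.05 on A and B and 5.61 to 7.19 on C. DC-Dysbiotic was below DC-Young on each letter without overlap, by -0.59, -0.31 and -0.77, and the fit gave -0.56 (95% interval -1.42 to 0.31). The other Zbtb46 probe was well above background on 8 of 12 arrays and did not follow this, with -0.04, -0.08 and 0.83.

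Counted over all 20 probes, 0 passed an adjusted p of 0.05 with a fold change of at least 0.5 (log2) in any of the 6 comparisons by limma. At an unadjusted p of 0.05 or less there was 1 probe for DC-Dysbiotic versus DC-Young, the brightest of Tcf4, and 1 for DC-Old-LP versus DC-Dysbiotic, that of Klf4, with 0 in the other 4 comparisons. Of all probes tested, 0.62% were called for DC-Old versus DC-Young, 0.344% for DC-Dysbiotic versus DC-Young, 0.348% for DC-Old-LP versus DC-Old and 0.163% for DC-Old-LP versus DC-Dysbiotic. For DC-Old versus DC-Dysbiotic the share was 0.00177%, and for DC-Old-LP versus DC-Young it was 0%. With calls this rare among all probes, 0 of 20 does not set these genes apart. On the first slide 4, 2, 2 and 2 of the 20 probes were called in the first 4 of these comparisons, against 9.17%, 6.14%, 8.24% and 4.81% of all probes, and 0 in the last 2, against 0.0406% and 0.0389%. These calls belong to 4 genes, and the first-slide fits share groups with each other.

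Groups did not overlap at 5 of the 20 probes for DC-Dysbiotic versus DC-Young, 2 of them higher (both Tcf4) and 3 lower (Irf4, Zbtb46 and Klf4). Among all probes 9.87% did not overlap in this comparison, 5.24% higher and 4.63% lower. For DC-Old versus DC-Young it was 1 of 20, the second brightest probe of Tcf4, against 9.65% of all probes, and for DC-Old-LP versus DC-Old 0 of 20 against 9.4%. For DC-Old-LP versus DC-Dysbiotic it was 2 of 20 (9.55% of all probes), for DC-Old-LP versus DC-Young 1 of 20 (4.75%) and for DC-Old versus DC-Dysbiotic 0 of 20 (5.32%). The median difference over the 20 probes was 0.02 for DC-Old versus DC-Young, 0.07 for DC-Dysbiotic versus DC-Young and 0.11 for DC-Old-LP versus DC-Old, against 0.01, -0.02 and -0.01 over all probes. For DC-Old versus DC-Young, 10 of the 20 probes had 1 sign on A and B and the other on C, and 7 had the same sign on all letters.

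Batf3 and Klf4 moved together across the arrays. After each value was centred on the mean of the 4 arrays of its letter, their Pearson r over the 12 arrays was 0.94, the highest of the 36 pairs among the 9 genes whose brightest probe cleared background on every array. Irf4 had an r of 0.66 with Klf4 and 0.56 with Batf3, and Id2 had 0.69 with both Irf8 and Nfil3. At the other end, Id2 and Spi1 had -0.80 and Batf3 and Tcf4 -0.65. These are descriptions over arrays that share slides and groups. Part of the Batf3 and Klf4 likeness lies in C, where DC-Old was highest for both genes and DC-Dysbiotic lowest.

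**Figure D3:**
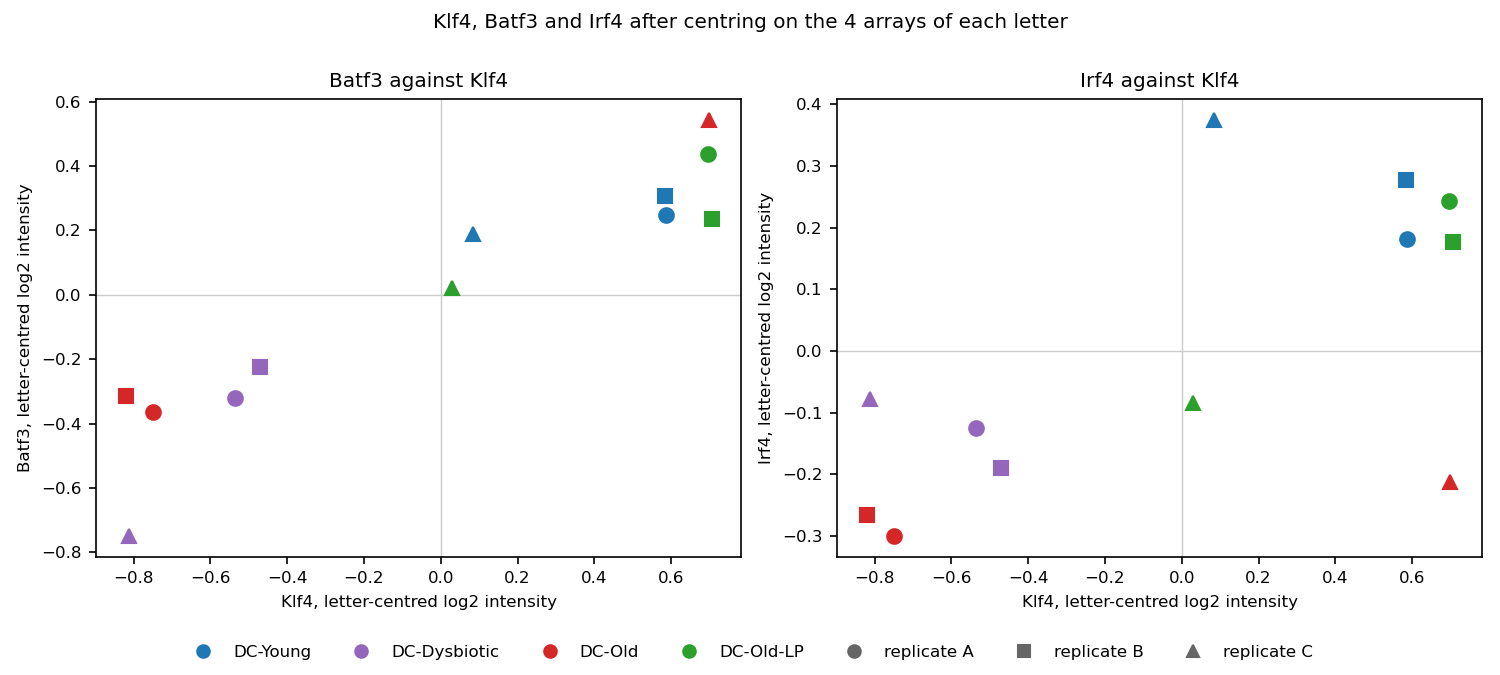
Letter-centred log2 intensity of Batf3 (left) and Irf4 (right) against that of Klf4, with 1 point per array, colour for the group and shape for the letter. DC-Old A and B lie at -0.75 and -0.82 for Klf4 and DC-Old C at 0.70, and Batf3 follows with -0.36, -0.31 and 0.54, whereas Irf4 of DC-Old stays between -0.30 and -0.21.

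The named genes most alike to each factor by the same measure, among 10668 genes, were as follows. Klf4 was followed by Ang6 (r = 0.996), Gfra2 (0.989) and Fam20a (0.988), Batf3 by Klk1b4, Pafah1b3 and Map4k1 (0.974 to 0.975), and Irf4 by Palld (0.978), Utf1 (0.976) and Phf11d (0.972). Irf8 was followed by Brap (0.974), Mrpl24 and Clp1, and Id2 by Rnf130 (0.987), Ccdc12 and Cycs. Tcf4 was followed by Tmed5 (0.969), Suclg2 and Snx30, Zeb2 by Fbxo36 (0.981), Ltv1 and Trim26, Nfil3 by Mrps7 (0.969), Armc3 and Mapkapk2, and Spi1 by Aldh2 (0.948), Tatdn2 and Nagpa. Values this high were found for each of the 9 genes, and they say nothing of shared function.

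Of 34 partner transcription factors, which bind with the 10 factors, compete with them or belong to their families, 33 had a probe and 32 were well above background on every array. None was called in any comparison by limma over all arrays. For DC-Old versus DC-Young 10 were higher and 23 lower, with a median of -0.19 against 0.00 over all named genes. For DC-Old-LP versus DC-Old 23 were higher and 10 lower, with a median of 0.18 against 0.01, and these 2 comparisons share the DC-Old arrays. With the letter as a block, 3 of 33 were called for DC-Old versus DC-Young, where 2.18% of all probes were. Those 3 were Gfi1 and Cebpe, lower, and Fos, higher. No partner factor and none of the 20 member probes was called with the block in the other comparisons, where the shares of all probes were 0.984% for DC-Dysbiotic versus DC-Young, 1.65% for DC-Old-LP versus DC-Old, 0.588% for DC-Old-LP versus DC-Dysbiotic and 0.00177% for the remaining ones.

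Gfi1, a repressor that favours granulocytes over monocytes, had the smallest p of the list for DC-Old versus DC-Young. It read 9.49, 9.45 and 9.78 in DC-Young and 8.47, 8.41 and 8.21 in DC-Old, without overlap. In DC-Dysbiotic it read 8.99, 9.03 and 9.88, and in DC-Old-LP 9.16, 9.26 and 9.70. The log2 fold change of DC-Old versus DC-Young was -1.21 (SE 0.284, limma adjusted p = 0.142, with the block 0.0349). For DC-Old-LP versus DC-Old it was 1.01 (SE 0.284, limma adjusted p = 0.329). All DC-Old arrays, C included, lay below all other arrays.

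Spib encodes a PU.1 relative of plasmacytoid DCs and B cells and was chosen after its values were seen. It read 10.69, 10.74 and 10.71 in DC-Young, 9.05, 9.11 and 10.62 in DC-Old, 9.89, 9.50 and 10.23 in DC-Dysbiotic and 10.75, 10.63 and 11.00 in DC-Old-LP. DC-Old versus DC-Young was -1.12 (SE 0.396, limma adjusted p = 0.531) and DC-Old-LP versus DC-Old 1.20 (SE 0.396, limma adjusted p = 0.509).

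**Figure D4:**
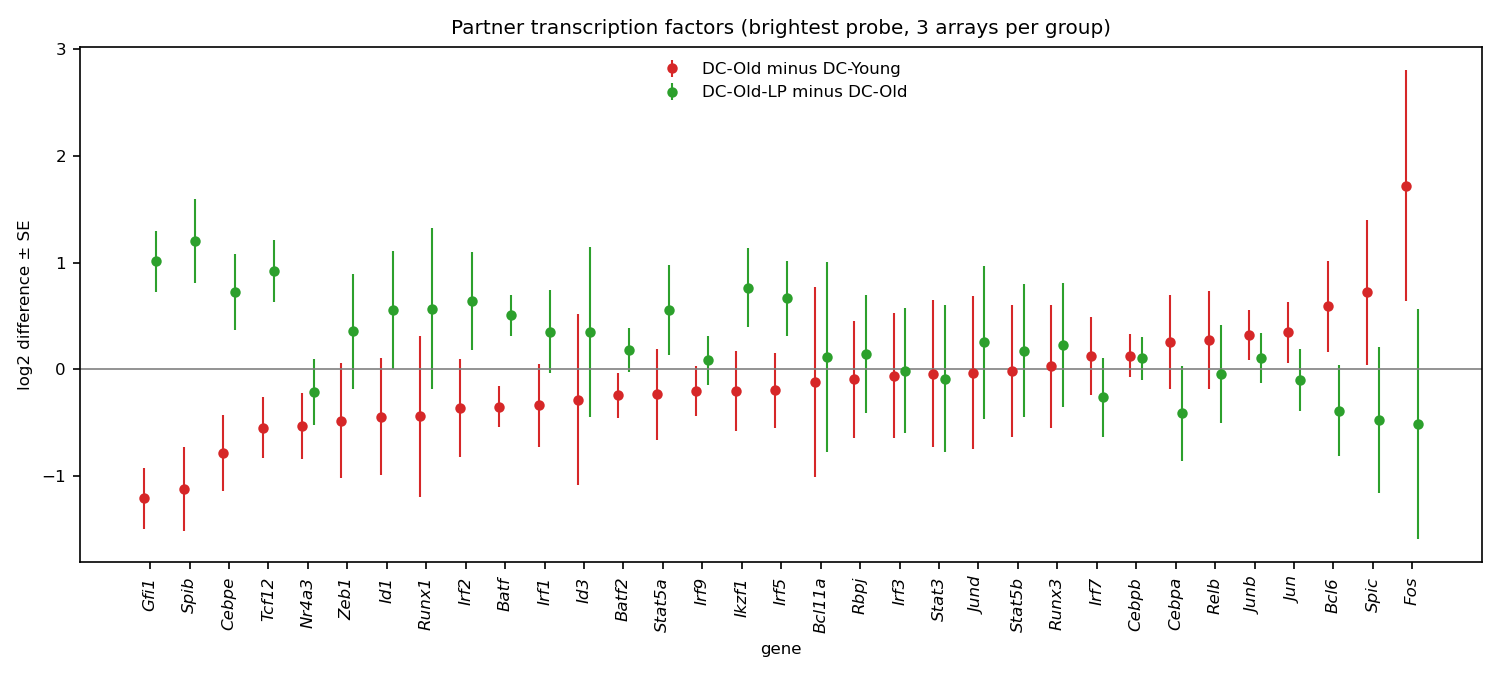
Log2 difference ± SE (vertical axis) of 33 partner transcription factors at their brightest probe (horizontal axis, ordered by the first comparison) for DC-Old minus DC-Young and DC-Old-LP minus DC-Old, which share the 3 DC-Old arrays. Fos has the highest first difference (1.72) with the widest error, Gfi1 is at -1.21 and 1.01, and no gene passed the test over all arrays.

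Genes that mark the DC branches were read in the same fits. Of 10 cDC2 and monocyte-derived DC genes, 1 was called lower for DC-Old versus DC-Young and 1 higher for DC-Old-LP versus DC-Old, both times Pdcd1lg2, the gene of the checkpoint ligand PD-L2. Pdcd1lg2 read 12.58, 12.57 and 11.81 in DC-Young, 11.20, 11.12 and 11.18 in DC-Dysbiotic, 10.53, 10.67 and 10.68 in DC-Old, whereas DC-Old-LP read 12.53, 12.49 and 11.77. Its DC-Old versus DC-Young change was -1.69 (SE 0.283, limma adjusted p = 0.0272) and its DC-Old-LP versus DC-Old change 1.64 (SE 0.283, limma adjusted p = 0.0495). The median of the list was -0.68 for DC-Old versus DC-Young, -0.49 for DC-Dysbiotic versus DC-Young and 0.67 for DC-Old-LP versus DC-Old, against 0.00, -0.01 and 0.01 over all named genes. With the letter as a block, the calls became 2 lower and 3 higher in the first and last of these, with Ccl17, a chemokine gene of these cells, added to both and Clec10a to the second.

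Of the 9 cDC1 genes none was called. Clec9a, the receptor by which cDC1 cells sense dead cells, had the smallest p and ran against Batf3. It read 8.26, 8.06 and 8.25 in DC-Young, 8.90, 8.89 and 9.004 in DC-Dysbiotic, 8.93, 9.07 and 8.99 in DC-Old, whereas DC-Old-LP read 7.89, 7.95 and 8.20. DC-Old was higher than DC-Young by 0.81 (SE 0.189, limma adjusted p = 0.138, with the block 0.0217) and DC-Old-LP lower than DC-Old by -0.99 (SE 0.189, limma adjusted p = 0.0748, with the block 0.0124). The median of the cDC1 list was -0.26 and 0.22 in these comparisons, the other way from Clec9a.

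Of the 10 plasmacytoid DC genes none was called, and the list's median was -0.08 for DC-Old versus DC-Young and -0.01 for DC-Dysbiotic versus DC-Young, the comparison in which Tcf4 was higher. Cox6a2, the smallest p of that list, differed between DC-Old and DC-Young by -1.11 (SE 0.359, limma adjusted p = 0.423, with the block 0.0114). None of the 11 pan-DC genes was called either, with medians of -0.22 and 0.08 for DC-Old versus DC-Young and DC-Old-LP versus DC-Old. The smallest p were those of Kmo, at -1.62 in the first (SE 0.618, limma adjusted p = 0.621), and of the MHC class II alpha chain gene H2-Aa, at 1.30 in the second (SE 0.474, limma adjusted p = 0.639). H2-Ab1, the beta chain of the same molecule, ran the other way. It read 16.74, 16.92 and 15.82 in DC-Young, 17.62, 17.38 and 16.86 in DC-Old and 16.91, 16.95 and 16.27 in DC-Old-LP, with differences of 0.79 for DC-Old versus DC-Young and -0.57 for DC-Old-LP versus DC-Old, while H2-Aa had -1.04 in the first. With the block, H2-Ab1 was called higher and Kmo and Dpp4 lower for DC-Old versus DC-Young.

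Genes of other cells that marrow cultures can hold also moved between the groups, and their part in the results above was not tested. Of 10 erythroid and megakaryocyte genes, 2 were called higher for DC-Old versus DC-Young and for DC-Dysbiotic versus DC-Young, the erythropoietin receptor gene Epor and the platelet gene Gp9, and Epor was called lower for DC-Old-LP versus DC-Old and versus DC-Dysbiotic. With the block the first 2 counts were 5 and 4. In both, 7 of the 10 genes were higher and 3 lower, with medians of 1.27 and 1.38. The haemoglobin genes lay among the lower ones. Hbb-bt read 8.72, 8.42 and 8.52 in DC-Young, 6.65, 6.51 and 7.66 in DC-Dysbiotic and 4.31, 3.48 and 9.81 in DC-Old, and Hba-a1 was below DC-Young in DC-Dysbiotic on every letter, with a fitted -0.49, neither of them called. The list's summed signal (log2) was 15.8 to 16.2 in DC-Young and 16.4 to 16.9 in DC-Dysbiotic. It was 16.3 to 16.9 in DC-Old and 15.9 to 16.3 in DC-Old-LP. Such sums, here and below, add unlogged intensities, so the brightest genes of a list weigh most, in this list Pf4 and Ppbp. Klf1, which encodes a factor of red cell precursors, cleared background on only 2 of the 12 arrays. Of 11 neutrophil and granulocyte precursor genes, Camp was called higher in both, by 2.71 in DC-Old (SE 0.426, limma adjusted p = 0.0208) and 2.47 in DC-Dysbiotic (SE 0.426, limma adjusted p = 0.0498), while the list's medians were -0.53 and -0.56. The summed signal of that list, whose brightest genes were Csf3r and S100a9, was 16.4 on DC-Old C and 15.5 to 16.0 on the other arrays.

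The 13 monocyte and macrophage genes had medians of 0.00, 0.06 and -0.10 for DC-Old versus DC-Young, DC-Dysbiotic versus DC-Young and DC-Old-LP versus DC-Old, with none called. Their summed signal overlapped in all groups, between 18.1 and 18.8. Fcgr1 had the smallest p, at -1.24 for DC-Old versus DC-Young (SE 0.274, limma adjusted p = 0.111, with the block 0.0139). No T cell gene of 7 was called, with a summed signal of 13.3 to 13.9 in DC-Old against 14.3 to 15.3 in the other groups, and Cd3e, Cd3d and Cd4 were well above background on all arrays. Thy1 and Cd3d had the smallest p, at -1.14 (SE 0.29, limma adjusted p = 0.198) for DC-Old versus DC-Young and 1.47 (SE 0.494, limma adjusted p = 0.537) for DC-Old-LP versus DC-Old. No B cell gene of 6 was called, and their summed signal was 15.3 on DC-Old C against 13.4 to 14.9 on the other 11 arrays. Pax5 had the smallest p there, at -1.29 (SE 0.54, limma adjusted p = 0.743) and 1.26 (SE 0.54, limma adjusted p = 0.812). No mast cell and basophil gene of 9 was called, their summed signal ran from 13.0 to 14.9 in DC-Old and from 13.5 to 14.4 in the other groups, and Mcpt8 was at -1.34 (SE 0.341, limma adjusted p = 0.198) and 1.12 (SE 0.341, limma adjusted p = 0.413). DC-Old C, the array with the highest Klf4 and Batf3 values, thus also held the highest neutrophil, B cell and mast cell sums and the lowest T cell sum.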

How the data were processed

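Gene expression was measured on 12 arrays, 3 in each of 4 groups taken from the sample labels. The authors deposited the spot intensity written by the Feature Extraction software, background subtracted and detrended, without normalization between arrays. They also deposited a log2 table, which matches quantile normalized log2 median signal (46302 probes, all 20 member probes).

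Here 1068 outlier readings were set to missing, log2 intensity was quantile normalized and spots were averaged to 56605 probes. Accessions named 35405 probes. limma 3.58.1 in R 4.3.3 fitted 4 group means to all arrays. A probe was called at a two-sided p of 0.05 or less after Benjamini-Hochberg adjustment over all probes, if its log2 fold change was 0.5 or more in either direction. The code was first tested on simulated data. With 3 against 3 arrays an exact permutation p cannot go below 0.1, so none was used, and precision is limited by the number of arrays. Deviations from group means gave r of 0.415 to 0.711 between arrays of 1 letter, 0.449 to 0.570 between A and B, and -0.659 to -0.466 between C and the others. The pairing by letter comes from these data and sets only C apart.

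The 10 members and the 11 lists were chosen with earlier results of these data known. Every member probe is named, the brightest standing for the gene. From each list the called genes are named, or otherwise those with the smallest p between old and young mice and between the old groups, and for each member the 3 genes most alike. Some genes were named outside this rule, among them genes called only with the block, Spib, H2-Ab1, Hbb-bt, Hba-a1, Klf1 and the cell type markers. The brightest probe was that with the highest mean over all arrays. Promoters came from RefSeq (GRCm38.p6), whose build differs from the mm9 build of the array. The file headers name Feature Extraction 12.1.1.1 and the labels 10.5. Alternatives were other scalings, backgrounds, filters, blocks, the first slide alone, the compared groups alone, an intensity trend, no removal of outlier spots and leaving out each array. For single genes the mean of the probes of a gene was a further alternative. Of 132 listed genes other than the members, 3 had no probe.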

Additional observations from a re-analysis of the deposited data

How the results depend on the processing

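The count of called probes among the 20 was recomputed under every alternative but the mean of the probes of a gene. It was 0 in all 6 comparisons, as over all arrays, except in 2 kinds of fit. On the first slide alone it was 4 for DC-Old versus DC-Young, where 9.17% of all probes were called. It was 2 each for DC-Dysbiotic versus DC-Young, DC-Old-LP versus DC-Old and DC-Old-LP versus DC-Dysbiotic, against 6.14%, 8.24% and 4.81% of all probes. Leaving out 1 array gave 0 to 1 in these 4 comparisons, the 1 being Klf4 without DC-Old replicate C, and 0 in the other 2. Without that array, calls over all probes in these 4 comparisons also rose, from 351, 195, 197 and 92 to 590, 402, 424 and 265. The replicate block, which uses the pairing by letter, called 0 member probes in every comparison and changed no call of a member.

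Single genes were read in the first 3 comparisons at their brightest probe or, as an alternative, at the mean of their probes. Of these 690 values, 633 kept their sign and their side of the threshold, 10 came to pass it and 47 changed sign. For DC-Old versus DC-Young, Zbtb46 (0.05) became -0.087 with the slide as a block and -0.33 on the first slide. On the first slide Id2 became -0.0033 and Spi1 0.023 for DC-Dysbiotic versus DC-Young, and Zbtb46 became 0.16 for DC-Old-LP versus DC-Old. With normexp background correction, Nfil3 became 0.0023 for DC-Dysbiotic versus DC-Young. With the mean of the probes of a gene, Zbtb46 became 0.29 and Zeb2 0.26 for DC-Old-LP versus DC-Old. The causes were not tested. Leaving out 1 array leaves the letters unequal between the groups. At probes where C differs from A and B, such a value also holds part of that difference. When each array was left out in turn, the DC-Old versus DC-Young values ran from -0.40 to 0.22 for Irf8, -1.13 to 0.23 for Batf3, -0.47 to 0.24 for Id2, -0.46 to 0.31 for Zbtb46, -0.081 to 0.70 for Spi1, -0.15 to 0.84 for Zeb2 and -0.47 to 0.24 for Nfil3. Those of DC-Dysbiotic versus DC-Young ran from -0.011 to 0.50 for Irf8, -0.31 to 0.39 for Id2, -0.40 to 0.38 for Spi1, -0.21 to 0.52 for Zeb2 and -0.46 to 0.25 for Nfil3. Those of DC-Old-LP versus DC-Old ran from -0.17 to 1.12 for Batf3, -0.68 to 0.094 for Zbtb46, -0.71 to 0.22 for Zeb2, -0.22 to 0.066 for Tcf4 and -0.12 to 0.33 for Nfil3. Over all alternatives, Irf4 ran from -0.71 to -0.34, from -1.45 to -0.21 and from 0.20 to 0.54 in these 3 comparisons. Klf4 ran from -1.38 to -0.34, from -1.10 to -0.98 and from 0.40 to 1.49. Each range had 1 sign. So did that of Tcf4 in the first comparison, from 0.20 to 0.54, and in the second, from 0.23 to 0.78. In the second comparison the same held for Batf3, from -1.07 to -0.16, and Zbtb46, from -0.66 to -0.16. In the third it held for Irf8, from 0.05 to 0.55, Id2, from 0.14 to 0.63, and Spi1, from -0.68 to -0.17. The -1.45 came with the mean of both Irf4 probes, of which the dimmer read 1.95 on DC-Dysbiotic C. A shift by the 75th percentile in place of quantile normalization moved the median of all probes from 0.01 to 0.15 for DC-Old versus DC-Young, from -0.02 to -0.12 for DC-Dysbiotic versus DC-Young and from -0.01 to -0.12 for DC-Old-LP versus DC-Old.

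With 3 arrays a group, of which C carries less signal, the 95% interval for Irf4 in DC-Old versus DC-Young ran from -1.13 to 0.05. Calls on the first slide rest on 2 arrays a group that share that slide.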
